A study of Mus musculus with 4 samples.

Results

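The lysozyme locus on mouse chromosome 10 holds Lyz1 and Lyz2, neighbouring genes on the minus strand that encode the C-type lysozymes. SMAD4 peaks of the locus were taken as all peaks whose summit lay within 100 kb of either gene body, in a window of 215328 bp (chr10:117177541-117392868, mm10). The locus was chosen by its fold enrichment, since the strongest SMAD4 region found in both replicates lies there, so the peak values given for it are a description, with no test. Replicate 1 had 8 of its 16369 peaks in the window, and replicate 2 had 12 of its 19015. Where peaks of the lists overlapped by 1 bp or more, they were joined into a shared region, and 7 of the 10964 shared regions lay in the window.

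Lysozyme is a secreted enzyme that cleaves the peptidoglycan of bacterial cell walls and is stored or released by macrophages, neutrophils and epithelial cells. In the mouse a duplication gave a pair of genes: Lyz2 encodes the M lysozyme of myeloid cells, and its regulatory sequence drives the widely used myeloid Cre line, whereas Lyz1 encodes the P lysozyme known from Paneth cells of the small intestine. SMAD4 is the common partner of the receptor-activated SMAD proteins, which carry signals of TGFβ and related ligands to the nucleus, and TGFβ is one of the niche factors on which alveolar macrophages depend.

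The cells studied were alveolar macrophages (AMs), which live in the airspaces of the lung, collected by bronchoalveolar lavage and sorted by flow cytometry from wild-type C57BL/6J mice 9 weeks old. SMAD4 binding was measured by HT-ChIPmentation, in which chromatin is precipitated with an antibody and the transposase Tn5 adds the adapters on the beads. The series has 2 SMAD4 ChIPmentation samples and 2 input samples, all from wild-type mice, and the labels give no second genotype and no treatment. The sources do not say whether the ChIPmentation samples came from separate mice, nor which input served as control for which sample.

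Depth was read from the peak values. The background control level was 2.08 fragments at a position in replicate 1 and 1.22 in replicate 2, and the median summit pileup, the number of fragments stacked at the summit, was 17 and 14. Fold enrichment divides the pileup by the control level, after 1 is added to each, and its median was 5.52 in replicate 1 and 6.77 in replicate 2. In replicate 1, 69.4% of all peaks had a partner in the other list, and in replicate 2, 59.2%. Peak lists give no value between peaks, so a site without a peak is one that did not pass the authors' limit, and not one shown to be unbound. As the lists measure binding, marker expression could not be used to check the cell type.

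Lyz2 spans chr10:117277541-117282272 (4732 bp) and Lyz1 chr10:117287795-117292868 (5074 bp). Each has 4 exons and a coding sequence of 447 bp, and their transcription start sites (TSSs) lie 10596 bp apart, with 5522 bp between the gene bodies. The coding sequences are 95.1% identical, with 22 mismatches and no gap, and exon 3 is identical in both. Aligned stretches cover 96.2% of the Lyz1 body, at 91.4% identity. The 250 bp upstream of the TSSs are more diverged, with 200 identical bases in 252 aligned columns (79.4%). They are printed here, 5′ to 3′ on the minus strand up to the base before the TSS (RefSeq, GRCm38.p6), because SMAD4 peaks were called on one of them. Capitals mark consensus strings of transcription factors.

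Lyz2 upstream (chr10:117282273-117282522): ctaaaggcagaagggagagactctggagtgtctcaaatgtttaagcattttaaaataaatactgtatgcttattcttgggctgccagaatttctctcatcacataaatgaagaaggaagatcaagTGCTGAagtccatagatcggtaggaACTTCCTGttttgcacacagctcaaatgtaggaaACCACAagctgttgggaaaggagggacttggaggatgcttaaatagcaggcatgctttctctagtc
Lyz1 upstream (chr10:117292869-117293118): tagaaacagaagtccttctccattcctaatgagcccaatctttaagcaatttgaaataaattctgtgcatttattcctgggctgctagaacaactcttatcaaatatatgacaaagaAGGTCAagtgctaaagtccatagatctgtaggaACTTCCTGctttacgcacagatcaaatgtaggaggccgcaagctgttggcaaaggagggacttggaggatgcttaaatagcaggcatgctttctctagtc

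The last capitals but one in Lyz2 and the last in Lyz1 are the ETS string CAGGAAGT, read here as its reverse complement, whose first base lay 100 bp before the TSS in both genes. Lyz2 alone held the RUNX string TGTGGT (reverse complement), 66 bp before the TSS, and the MAF string TGCTGA, 125 bp before it. Lyz1 alone held the nuclear receptor string AGGTCA, 133 bp before the TSS. Among 32851 promoters of the same length, the ETS string occurred in 2.69%, the RUNX string in 14.0%, the MAF string in 16.1% and AGGTCA in 14.0%.

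The strongest region (region 5, with regions numbered 1 to 7 by position) lay in intergenic sequence at chr10:117301315-117302642, 9122 bp upstream of the Lyz1 TSS and 19718 bp upstream of the Lyz2 TSS. Its pileup was 180 fragments in replicate 1 and 212 in replicate 2, over control levels of 2.35 and 1.22 fragments, and its fold enrichment was 54.0 and 96.1. Both folds were the highest of their lists. Its pileups were not, since the highest were 374 fragments in replicate 1 and 351 in replicate 2. The control of 1.22 is the background level of replicate 2, at which 80.9% of its summits lay. The next region by the smaller fold of both replicates, on chromosome 1, had folds of 52.3 and 79.9, so the smaller fold of region 5 was 1.032 times that of the next. Ranked by the smaller ratio of pileup to background level, region 5 came 5th. With a width of 1328 bp it was wider than 99.2% of shared regions, whose median width was 440 bp, and the summits of its replicates lay 80 bp apart, against a median gap of 49 bp.

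A stretch of 300 bases of region 5 that holds both summits is shown because it carries the highest SMAD4 fold of either list (chr10:117301741-117302040, plus strand, GRCm38.p6). Capitals mark, in this order, the PU.1 string GAGGAAGT, read as its reverse complement, and a CEBP string of 8 letters.

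Region 5: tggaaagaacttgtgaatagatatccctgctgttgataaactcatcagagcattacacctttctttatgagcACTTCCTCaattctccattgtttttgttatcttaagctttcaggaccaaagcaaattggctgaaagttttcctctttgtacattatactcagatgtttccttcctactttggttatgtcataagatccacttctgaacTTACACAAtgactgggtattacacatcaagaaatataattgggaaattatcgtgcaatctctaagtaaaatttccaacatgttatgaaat

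The CEBP string TTACACAA lay at 117301951 to 117301958, with its middle 4 bp from the summit of replicate 1 and 76 bp from that of replicate 2. C/EBP proteins and PU.1 are myeloid lineage factors. The PU.1 string lay 134 bp and 214 bp from the summits, outside the summit window of 100 bp each side of the mean summit. Further out in the region were both RUNX strings, a STAT5 string (TTCNNNGAA) 204 bp from the mean summit and the string AGGTCA 412 bp from it. Per kb, region 5 held 0.753 CEBP strings, against 0.783 over all shared regions, and 1.51 RUNX strings, against 1.22. PU.1, STAT5 and AGGTCA were each at 0.753 per kb in region 5, against 0.265, 0.407 and 0.754 over all shared regions. None of the 3 SMAD strings searched (the single site GTCTGG, the palindrome GTCTAGAC and the GC-rich GGCGCC) occurred in the 1328 bp of region 5. Over their whole width, 24.1% of all shared regions held the single site, 0.757% the palindrome and 2.16% the GC-rich string. The summit window of region 5 had a GC content of 32.3%, the lowest of the 7 regions, against a median of 43.8% over all shared regions.

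**Figure D1:**
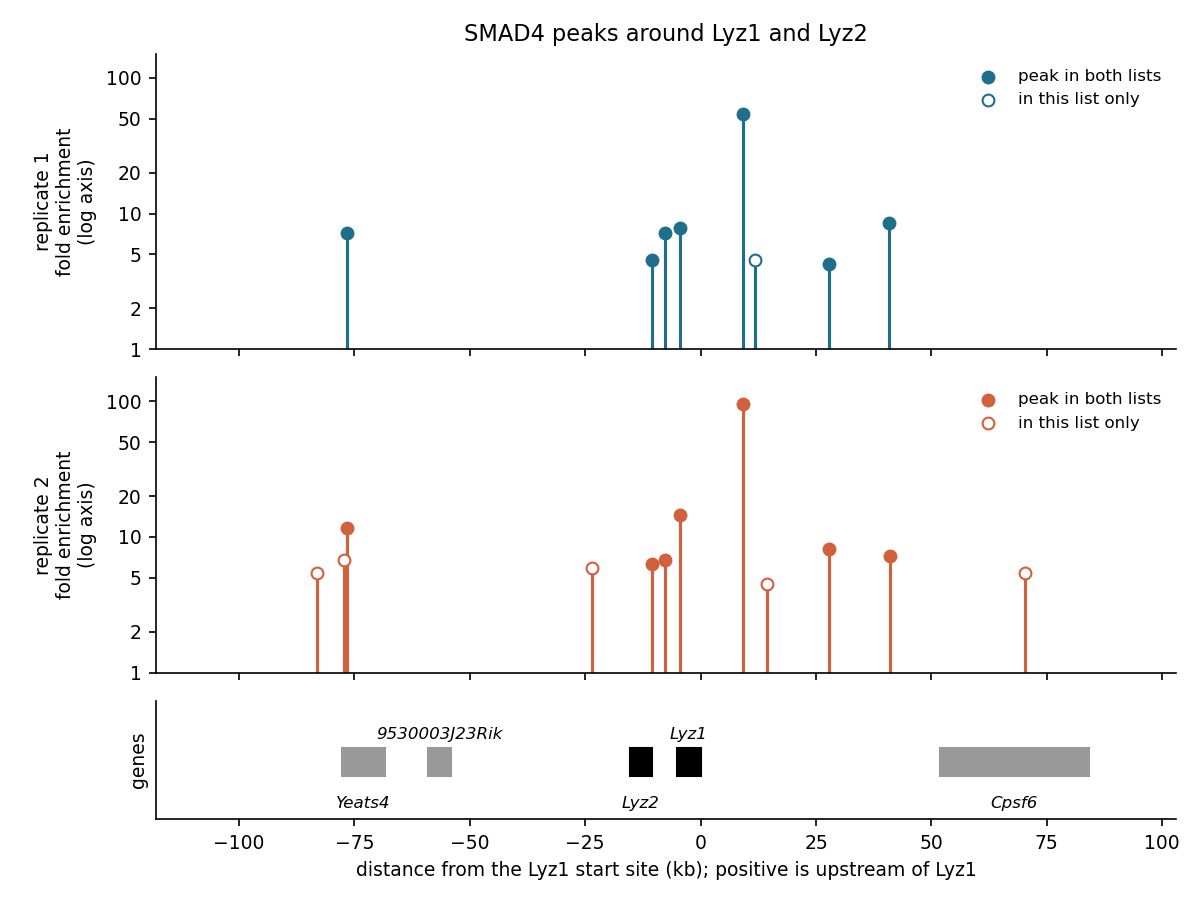
Fold enrichment of every SMAD4 peak in the window (log axis) for replicate 1 (upper panel, 8 peaks) and replicate 2 (middle panel, 12 peaks), against the distance of the summit from the Lyz1 start site in kb. Filled points are peaks with a partner in the other list and open points have none; the bottom panel shows the gene bodies, and the peak 9 kb upstream of Lyz1 stands above all others at 54.0 and 96.1.

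Region 2 lay at the Lyz2 promoter, at chr10:117282304-117282525, with a mean summit 134 bp upstream of the Lyz2 TSS. Its pileup was 13 fragments in each replicate, and its folds were 4.55 in replicate 1 and 6.32 in replicate 2. It was among the weaker shared regions: 12.4% of all shared regions had a lower smaller fold. The printed Lyz2 sequence holds its summits, which lay 142 bp and 126 bp upstream of the TSS. No peak of either list was on the Lyz1 promoter. The sequence of the region 2 summit window recurs there, at chr10:117292902-117293082, with 83.5% identity over 182 bp. In either stretch, 100% of the words of 50 bases that start there occur once in the genome. This counts exact words only, and whether reads of either stretch passed the authors' mapping quality limit was not tested.

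Region 4 showed the reverse placement. It lay at chr10:117288213-117288678, with its mean summit in the 3′ UTR within exon 4 of Lyz1, 4507 bp downstream of the Lyz1 TSS and 6089 bp upstream of the Lyz2 TSS. The pileup was 23 fragments in replicate 1 and 31 in replicate 2, and the folds were 7.80 and 14.4, the second highest in the window in replicate 2. Its window matches the 3′ UTR of Lyz2 at chr10:117277799-117277999 with 95.5% identity over 201 bp, and no peak of either list was there. The region held a CEBP string (TTGCACAA, 38 bp and 74 bp from the summits), a PU.1 string, an ETS string, AGGTCA and a MAF string in this stretch. All 5 strings were also in the Lyz2 copy, which had a RUNX string besides. In both copies 93.5% of the 50-base words occur once in the genome.

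Region 3 lay between the genes at chr10:117285026-117285267, 2880 bp upstream of the Lyz2 TSS. Its pileup was 23 fragments in replicate 1 and 14 in replicate 2, with folds of 7.16 and 6.77. Of the 174 bases of its window that have a match, 83.3% are identical to a stretch downstream of Lyz2, at chr10:117274118-117274291, which had no peak. Both stretches are unique in the genome at 50 bases (100%). They are printed as a pair, on the plus strand, because the stretch with peaks in both replicates held none of the strings and the copy without a peak held 4.

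Region 3 (chr10:117285052-117285225): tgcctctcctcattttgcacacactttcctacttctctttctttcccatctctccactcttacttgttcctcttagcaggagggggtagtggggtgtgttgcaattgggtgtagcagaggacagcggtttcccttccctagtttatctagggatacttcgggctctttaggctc
Copy of region 3 (chr10:117274118-117274291): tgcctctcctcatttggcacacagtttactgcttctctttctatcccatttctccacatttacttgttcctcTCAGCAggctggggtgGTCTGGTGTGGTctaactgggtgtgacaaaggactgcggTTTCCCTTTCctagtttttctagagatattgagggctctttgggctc

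The capitals in the copy are the MAF string (reverse complement), the SMAD site GTCTGG with the RUNX string TGTGGT directly after it, and the interferon response string ISRE (reverse complement). The 3 shared regions inside the duplication each had a peak on one copy and none on the other, with region 2 on the Lyz2 side of its pair and region 4 on the Lyz1 side. How often near-copies of other shared regions carry a peak was not counted, so this count has no background beside it. A copy without a peak did not pass the authors' limit and is not shown to be unbound. The summit windows of regions 1, 5 and 6 had no second match in the 215328 bp window, and region 7 matched only an inverted stretch of 88 bp, without a peak.

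**Figure D2:**
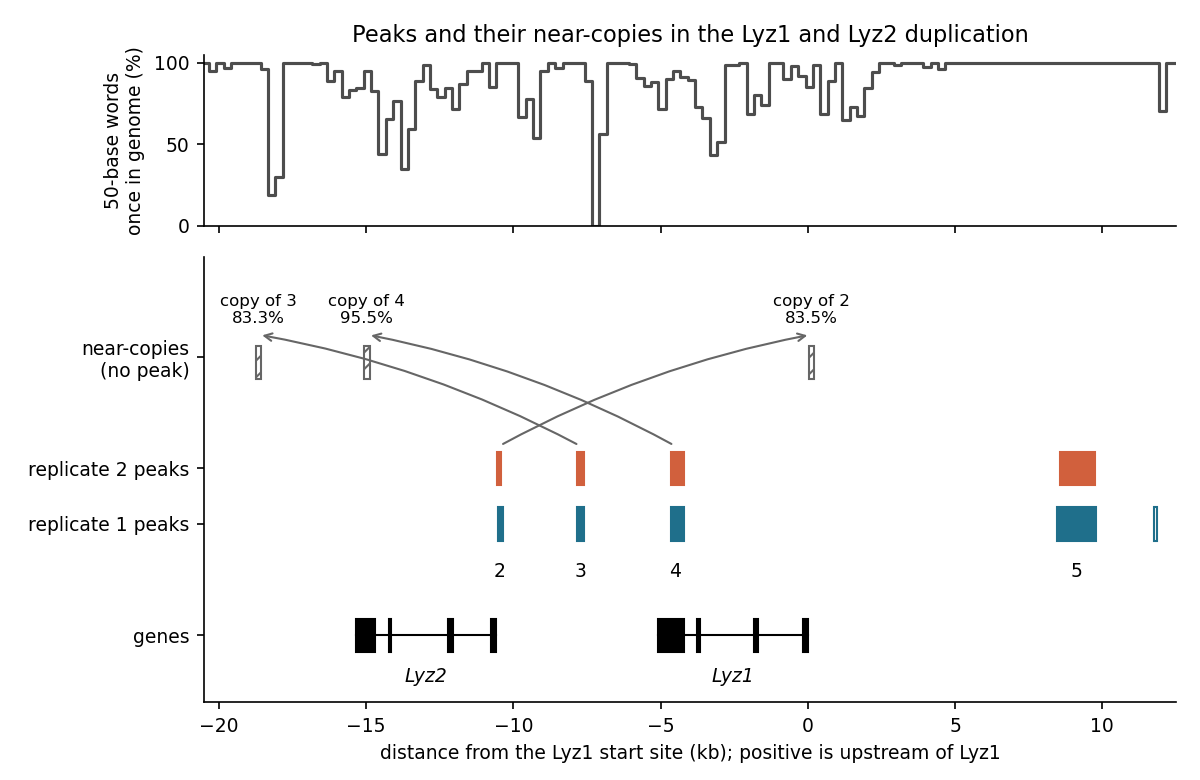
Peaks and gene models around Lyz1 and Lyz2 against the distance from the Lyz1 start site (kb), with exons as black boxes, peaks as coloured boxes (open where the other list has none) and hatched boxes for the near-copies of regions 2, 3 and 4, with percent identity. The upper panel gives the percent of 50-base words that occur once in the genome, in bins of 250 bp; the hatched boxes carry no peak in either replicate.

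The duplication limits where reads can be placed. The authors kept reads of high mapping quality, and 92.9% of the 50-base words of the window occur once in the genome, but 83.1% in Lyz1, 79.5% in Lyz2 and 86.4% between them. In 1 bin of 250 bp between the genes, close to region 3, the share was 0%. At 100 bases, 97.2% of the words of Lyz1 and 96.3% of those of Lyz2 occur once. The reads were paired and, per the quality metrics of the study, close to these 50-base words in length. Region 4 was at 91.6% (50-base words over the whole region), and the other 6 regions were at 100%.

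Upstream of Lyz1 followed regions 6 and 7. Region 6, at chr10:117320627-117320856 and 27886 bp upstream of the Lyz1 TSS, had 12 and 17 fragments and folds of 4.22 and 8.12, and its smaller fold was the lowest of the 7. No string was found in it. Region 7, at chr10:117333456-117333912 and 40925 bp upstream, had 25 fragments in replicate 1 and 15 in replicate 2, with folds of 8.45 and 7.22. It is shown because it was the only one of the 7 to hold the SMAD palindrome, which occurred in 0.757% of all shared regions.

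Region 7 (chr10:117333523-117333822, plus strand): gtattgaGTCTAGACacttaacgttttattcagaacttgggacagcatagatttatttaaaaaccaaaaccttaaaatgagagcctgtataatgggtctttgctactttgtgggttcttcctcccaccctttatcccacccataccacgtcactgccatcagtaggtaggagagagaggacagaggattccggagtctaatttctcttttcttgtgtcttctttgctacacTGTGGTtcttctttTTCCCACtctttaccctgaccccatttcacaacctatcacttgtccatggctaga

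The capitals are the palindrome GTCTAGAC, 260 bp from the mean summit, the RUNX string, and the RBPJ string GTGGGAA as its reverse complement, 3 bp from the summit of replicate 1 and 41 bp from that of replicate 2. RBPJ is the nuclear effector of Notch. Region 1 lay on the far side of Lyz2, at chr10:117215758-117216409 in an intron of Yeats4, a gene for a chromatin reader, 66017 bp downstream of the Lyz2 TSS. It had 21 and 25 fragments and folds of 7.15 and 11.7, and held the CEBP string TTACATAA and a MAF string in its summit window.

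Among the 7 regions the order of the folds was not the same in the replicates. Region 5 was first in both. In replicate 1, regions 7, 4, 3 and 1 followed within 7.15 to 8.45, and in replicate 2 regions 4 and 1, at 14.4 and 11.7, stood above regions 6, 7, 3 and 2, which lay within 6.32 to 8.12. With 1 value per replicate, neighbours in this order cannot be told apart. Apart from region 5, 6.91% to 62.3% of all shared regions had a lower smaller fold than each region of the window.

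**Figure D3:**
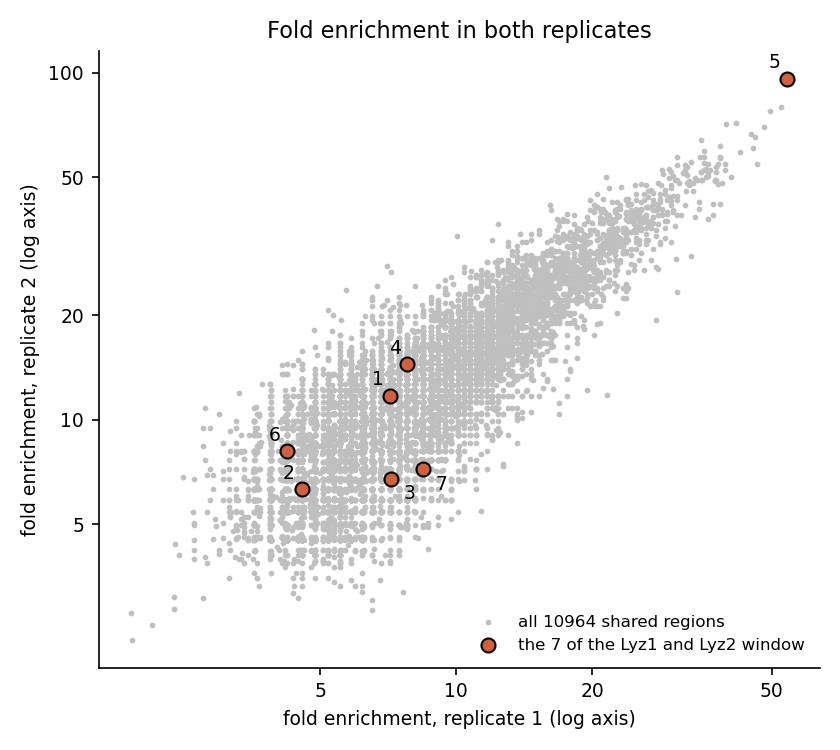
Fold enrichment in replicate 1 against replicate 2 (log axes) for all 10964 shared regions (grey) and the 7 of the window (orange, numbered by position). Region 5 is at the upper right end with 54.0 and 96.1; the other 6 lie at 4.22 to 8.45 in replicate 1 and 6.32 to 14.4 in replicate 2, within the grey cloud.

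In replicate 1, 7 of the 8 peaks of the window had a partner, against 69.4% of all peaks, and in replicate 2, 7 of 12 had one, against 59.2%. The peak of replicate 1 without a partner, at chr10:117304620-117304739, had 13 fragments and a fold of 4.55. The 5 of replicate 2 had 9 to 14 fragments and folds of 4.51 to 6.77, and lay downstream of Yeats4, in a Yeats4 exon, 12953 bp downstream of the Lyz2 TSS, 14341 bp upstream of the Lyz1 TSS and in an intron of Cpsf6. The highest of them (6.77, in the Yeats4 exon) lay beside region 1, and its fold was above that of region 2 in the same list. The outermost peaks of the window were both of replicate 2 alone, the one in Cpsf6 (fold 5.41), 70360 bp upstream of the Lyz1 TSS, and the one downstream of Yeats4 (5.41), 72460 bp downstream of the Lyz2 TSS. Just outside the upper end was a shared region with summits 423 bp and 517 bp beyond it and folds of 6.50 and 6.32. A stronger shared region, with folds of 27.3 and 38.4, had its summits 19977 bp and 19970 bp beyond the upper end.

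Strings were searched on both strands in the summit windows of 201 bp, 15 strings in all. The CEBP string occurred in 3 of the 7 windows (regions 1, 4 and 5) and in 23.6% of all 10964. The MAF string was also in 3 (14.6% of all), the ETS string in 2 (5.62%), the RUNX string in 2 (26.4%), and PU.1, AGGTCA and RBPJ in 1 each (8.0%, 15.4% and 4.14%). None of the 7 windows held AP-1 (TGAGTCA), STAT5, the E-box CACGTG, the ISRE, the nuclear receptor repeat DR1 or any SMAD string. The single SMAD site was in 11.2% of all windows, the palindrome in 0.465% and the GC-rich string in 1.01%. Regions 3 and 6 held no string, like 21.7% of all windows. Since a string is a match of letters only, it is not evidence of binding by the factor, and a missing string says only that these letters are not in the window.

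**Figure D4:**
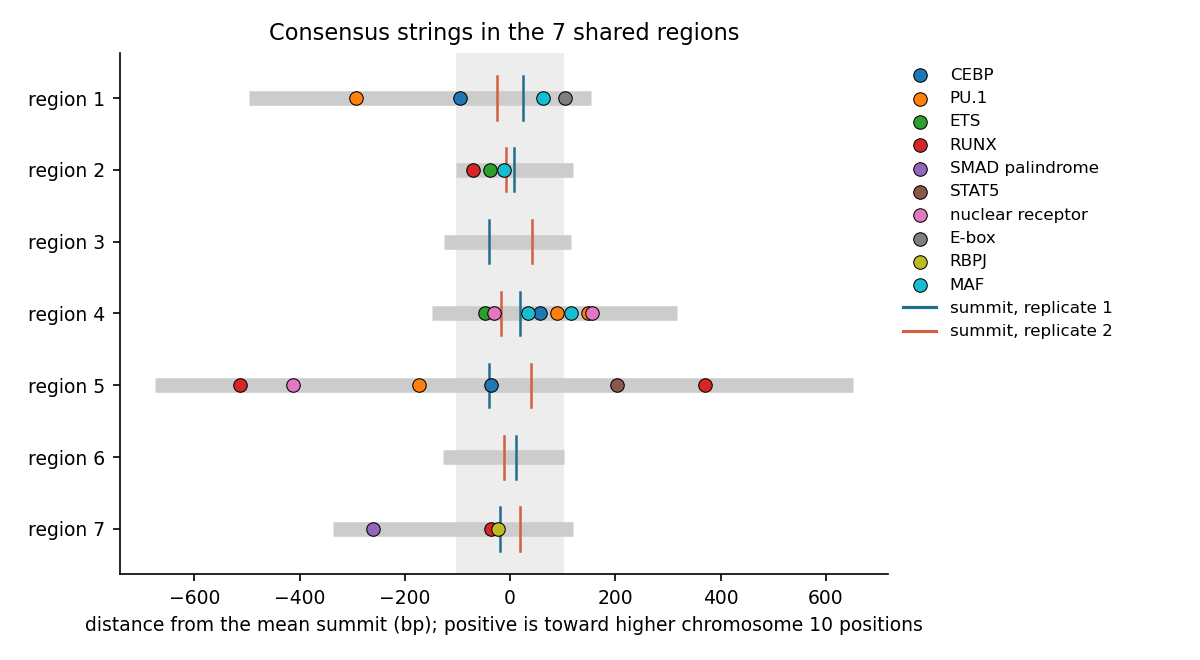
Position of each string in the 7 shared regions (grey bars, drawn over their whole width) by distance from the mean summit in bp, with the summits of replicate 1 (blue line) and replicate 2 (orange line) and the summit window of 100 bp each side shaded. Region 4 holds the most strings, regions 3 and 6 hold none, and the palindrome of region 7 lies 260 bp from the mean summit.

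Around each gene body, all 7 shared regions lay within 100 kb of both Lyz1 and Lyz2. Over 20923 protein-coding genes the median was 1, and 4.44% (930 genes) had 7 or more. Within 10 kb, Lyz1 had 4 shared regions (regions 2 to 5 by their mean summits) and Lyz2 had 3 (regions 2 to 4), counts reached by 2.38% and 4.38% of protein-coding genes. Region 5, for which the locus was chosen, is in the Lyz1 count within 10 kb and in both counts within 100 kb. The shares of genes that reach these counts are thus a description. At least 1 shared region within 100 kb was found for 58.1% of protein-coding genes, and within 10 kb for 23.3%. The neighbours share these peaks: within 100 kb, Yeats4 had 6 shared regions, 9530003J23Rik, annotated as a lysozyme C-like gene, had 7, and Cpsf6, a gene for a subunit of a pre-mRNA cleavage factor, had 9. Region 5 was within 100 kb of all 5 genes, so distance alone does not assign it to Lyz1. Within 10 kb, Yeats4 had 1 shared region and the other two had none.

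**Figure D5:**
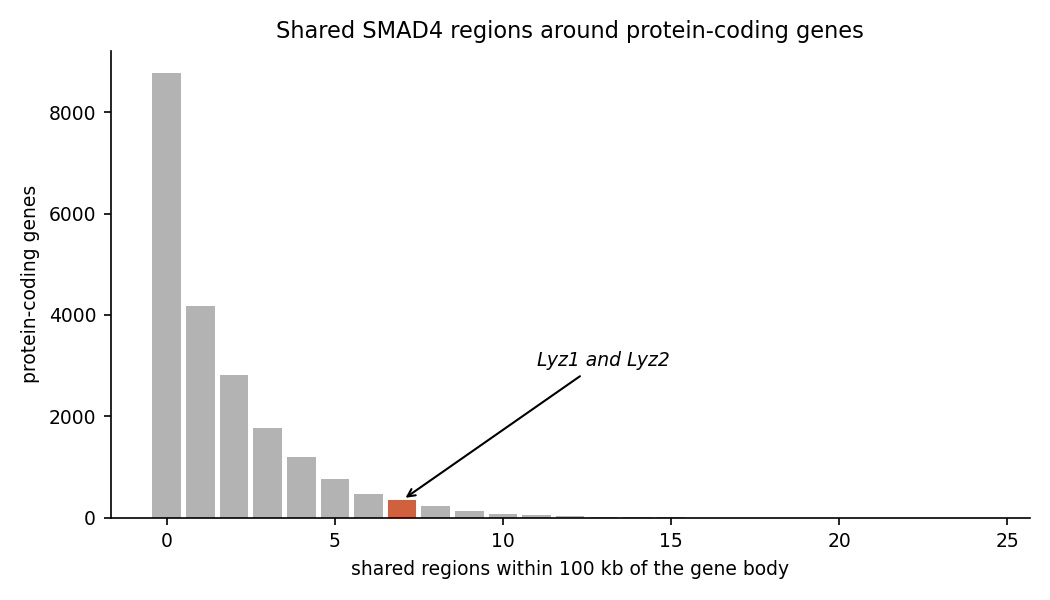
Number of protein-coding genes (y axis) by the number of shared SMAD4 regions within 100 kb of the gene body (x axis). The bar at 7 (orange) holds Lyz1 and Lyz2; the median gene had 1, and 4.44% of genes had 7 or more.

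The genes most like Lyz1 and Lyz2 were found over 5 values per gene (the peaks of each replicate, the shared regions and the highest fold of each replicate within 100 kb), turned into percentiles and compared by Euclidean distance. As Lyz1 and Lyz2 have the same 5 values, the list is the same for both. The first were Ccdc62 and Denr, at distances of 1.51 and 1.61 percentile points. They are neighbours on chromosome 5 and share 1 region with folds of 49.4 and 77.6, the third in rank. Gm266 on chromosome 12 (highest folds 46.4 and 54.7), Fbxl14 on chromosome 6 (38.7 and 48.3) and Rtp2 on chromosome 16 (34.6 and 57.4) followed. Each had 7 or 8 shared regions.

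Genes of the wider lysozyme family, several of which act in sperm, were counted in the same way. Of the list of 10 (Lyz1, Lyz2, Lyzl1, Lyzl4, Lyzl6, Spaca3, Spaca5, Lalba, Lyg1 and Lyg2), 8 had a shared region within 100 kb and 3 within 10 kb, the third being Lyg2, a goose-type lysozyme gene, with a smaller fold of 4.55. Over all protein-coding genes the shares were 58.1% and 23.3%, and the chosen locus itself gives 2 of the list's genes in each count. The lysozyme C-like gene 9530003J23Rik of the window was not in the list. It had 7 shared regions within 100 kb and none within 10 kb. Lyzl4 and Spaca5 had none within 100 kb. The highest smaller fold near a family member outside the locus was 13.0, within 100 kb of Lyzl1. Lyzl1 had 8 shared regions in that distance and none within 10 kb. Within 100 kb, Lyzl6 had 9.67, and Lalba, the milk protein α-lactalbumin, had 7.22.

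Genes of other antimicrobial proteins were compared as a list of 21, with 17 having a shared region within 100 kb and 10 within 10 kb, beside 58.1% and 23.3% of all protein-coding genes. Within 10 kb the highest smaller folds were 21.1 at Cybb, the catalytic subunit of the phagocyte NADPH oxidase, 13.6 at S100a8, a subunit of calprotectin, 13.3 at Acod1, which makes itaconate, 11.4 at Wfdc21 and 10.4 at Ltf, the gene for lactoferrin. Nos2, Slc11a1, Slpi, Lcn2 and S100a9 had 4.87 to 6.82. Mpo, Ctsg, Ngp and Pglyrp1 had none within 100 kb, Camp had 4.55 within 100 kb and none within 10 kb, and Elane and Prtn3, neighbours that share a region, had 8.45 within 100 kb and none within 10 kb. Region 5, at 54.0, was above all of these by the choice of the locus, since it ranked first among all shared regions.

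Markers were set beside the locus by the same measure. The marker lists, like those of the family and antimicrobial genes, were chosen with earlier results of these data known. Their counts are therefore a description. Of 11 AM marker genes, 8 had a shared region within 10 kb and 11 within 100 kb, beside 23.3% and 58.1% of all protein-coding genes. Within 10 kb the highest smaller folds were at Chil3 (45.8) and Pparg (33.8, with 11 regions) and the lowest at Siglecf (4.18), and Car4, Fabp4 and Ear1 had no region. Of 8 markers of other cells that the lavage could hold, 7 had a shared region within 100 kb (87.5%) and 3 within 10 kb (37.5%), beside the same shares of all genes. The 3 were S100a8 (13.6) for neutrophils, Pecam1 (10.7) for endothelium and Scgb1a1 (7.47) for epithelium. Sftpc, Foxj1, Cd3e, Ly6g and Cdh5 had none within 10 kb. Binding near a marker gene is not its expression, and a part of other cells in the values at Lyz1 and Lyz2 was not tested.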

How the data were processed

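SMAD4 HT-ChIPmentation peak lists of 2 samples were used; the 2 inputs entered only as the authors' control. The authors used Cutadapt for trimming, Bowtie2 for alignment to mm10, PICARD to mark duplicates and samtools to keep proper pairs of high mapping quality without duplicates, and called peaks per sample with MACS3 (q-value limit 0.05). Each deposited peak has a fold ratio over control, a −log10 p-value and a −log10 q-value at the summit, a score (not used) and the summit offset. Tool versions and sequencing totals from the study are not used here. Fold and p were solved for the summit pileup and control level, and all peaks gave a whole pileup within 0.02 fragments; the solver, overlap, gene counts and string search were tested on simulated data. No test was run: the locus was chosen by its fold, and the members and gene lists were chosen with earlier results of these data known. The text names Lyz1, Lyz2, all genes within 100 kb, the 5 most similar genes and, of the fixed lists, mainly the genes with the strongest regions; the others enter the counts, except 1 marker gene that is not reported here. Genes were taken from RefSeq, with 45657 curated transcripts of 26089 genes (GRCm38.p6, the assembly of mm10). Near-copies were matched within the window by blastn 2.17.0 (E-value limit 1e-5), with those over 100 bp shown. Word uniqueness counted exact words on both strands of the genome. Replicate numbers follow accession order. Python 3.11.15, numpy 2.4.6, pandas 2.3.3, scipy 1.17.1, pysam 0.24.0, Biopython 1.88 and matplotlib 3.10.9 were used.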

Additional observations from a re-analysis of the deposited data

How the results depend on the processing

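Of 41 alternative values, 35 were taken as the same and 6 as moved. Counts could differ by up to 1.5 times, and the rank had to be equal. Percentiles could differ by the standard deviation of the single-replicate percentiles, which are themselves among the alternatives. Shares of words had to lie in the binomial interval of the reported share, which is very narrow over the many overlapping words of the window. At a fold of at least 5, replicate 1 had 5 peaks in the window instead of 8. With a summit window of 50 bp each side, the CEBP string was in 1 region instead of 3, and no share over all shared regions is given for that width. With 200 bp each side it was in 4 regions. Around the summits of replicate 1 alone it was in 2, and around those of replicate 2 alone in 3. These last values were taken as the same. By the smaller ratio of pileup to background level, region 5 ranked 5 instead of 1; its rank by the fold of either replicate alone was 1. The share of words that occur once in the genome was 88.2% at 36 bases and 98.6% at 100 bases. The cause of these shifts was not tested beyond the construction of each setting. Leaving out 1 replicate gave 8 to 12 regions in place of 7, since all peaks of the other list then count; the 12 are those without replicate 1. Stricter q limits of 0.01 and 0.001, 50% reciprocal overlap and summits within 100 bp each left 7 shared regions. A fold of at least 5 in both replicates left 5. It removed region 2 at the Lyz2 promoter and region 6, whose folds in replicate 1 were 4.55 and 4.22. The percentile of Lyz1 and Lyz2 among protein-coding genes was 95.6 and ranged from 94.7 to 97.5 over the alternatives. The counts behind it include region 5, for which the locus was chosen. No paired analysis was possible because no result comes from a test and the replicate numbers follow accession order. The peaks without a partner had 9 to 14 fragments at the summit.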
